A study of Homo sapiens with 12 samples.

Results

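Expression of 9 genes of the NRF2 pathway, of glutathione and thioredoxin metabolism and of the defense against ferroptosis was examined in melanoma cells that re-expressed the receptor tyrosine kinase TYRO3. The genes were NFE2L2, KEAP1, GCLM, GCLC, NQO1, HMOX1, TXNRD1, SRXN1 and GPX4, chosen by name with earlier results of these data known. They make up 9 of the 35579 genes to which the deposited transcript estimates could be summed. RNA of WM-266-4, an established human melanoma cell line, had been sequenced in 3 experiments with 1 library of each of 4 groups, which gives 12 libraries. The cells of every group, the controls included, carried a stable lentiviral knock-down of TYRO3, were grown with puromycin, were transfected with a pEZY-myc-his plasmid and were kept without serum overnight before RNA extraction. The GFP group received a GFP plasmid according to the sample labels, whereas the study describes its control as an empty plasmid. The WT group received wild-type TYRO3. The ΔGS group received TYRO3 with the I449A substitution, a mutation in the gamma-secretase cleavage site. The ΔADAM group received TYRO3 with P408A, L409P and G419P, mutations in the predicted cleavage sites of ADAM proteases. The comparisons ask whether TYRO3 changed the expression of these genes and whether the variants that resist cleavage differed from wild-type TYRO3. All groups come from 1 cell line with 1 knock-down, and TYRO3 was supplied from a plasmid.

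NRF2, encoded by NFE2L2, is a transcription factor that binds antioxidant response elements and turns on genes of the defense against oxidants and electrophiles. KEAP1 is the adaptor of a ubiquitin ligase that keeps NRF2 low until its reactive cysteines are modified. GCLC and GCLM form glutamate cysteine ligase, the rate-limiting enzyme of glutathione synthesis, and GPX4 uses glutathione to reduce lipid peroxides in membranes, the step whose failure leads to ferroptosis.

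The libraries held between 4008293 estimated counts, in GFP of experiment 1, and 38184838 counts, in GFP of experiment 2. The other 10 libraries lay between 18365999 and 34412887 counts. TYRO3 itself was at 53.1, 47.3 and 56.6 CPM (estimated counts relative to the size of the library, scaled by TMM factors) in the GFP libraries of experiments 1, 2 and 3. It was at 3064, 1791 and 1369 CPM with WT, at 3694, 1436 and 1648 CPM with ΔGS and at 3284, 1215 and 1181 CPM with ΔADAM, so that its level set the GFP libraries apart from the others, as labelled, and the libraries of experiment 1 carried the most TYRO3 in each TYRO3 group. The ranges of the 3 constructs overlapped, and which construct a library carried was not checked here. Of 8 melanocyte markers all were detected, with PMEL at 750 to 1316 CPM, SOX10 at 346 to 602 CPM and TYRP1 at 0.51 to 3.24 CPM (marker values without TMM scaling). The 8 markers summed to 2230 to 2675 CPM in GFP, 1325 to 2549 in WT, 1368 to 2238 in ΔGS and 1370.5 to 2104 in ΔADAM. In the comparison with GFP, 2 of the 8, MITF and DCT, were called as lower with ΔGS and with ΔADAM, and 0 of the 8 with WT. An unadjusted p under 0.05 was found for 5, 5 and 8 of them with WT, ΔGS and ΔADAM. Of all 15098 genes tested, 1.88% were called as lower with ΔGS and 2.05% with ΔADAM. An unadjusted p under 0.05 was found for 3241, 4022 and 4136 of all genes with WT, ΔGS and ΔADAM. The median log2 fold changes of the markers were -0.48, -0.38 and -0.48, beside -0.003, 0.007 and -0.002 over all genes tested. The part of the markers in the results below was not tested. Summed markers of other cell types (9 genes of epithelial, immune and endothelial cells) lay between 2.75 and 4.63 CPM in all 12 libraries, and KRT5 was at 0 in every library.

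NRF2 and its small MAF partners recognise a core written TGACNNNGC, or GCNNNGTCA on the other strand. The windows from 250 bases before to 50 bases after each transcription start in RefSeq (GRCh38.p14) were searched for this core on both strands. Entries were found for 8 of the 9 genes, all except HMOX1, with 13 windows in total, of which 4 windows held the core. They belonged to GCLM, TXNRD1 (both of its starts) and KEAP1. Over all genes, 4687 of 35116 windows (13.3%) held the core, and 4384 of 27305 genes (16.1%) had it in at least 1 window. The following sites are shown because 2 of the 3 genes that rose in every comparison with GFP, GCLM and TXNRD1, have the core in these windows, and KEAP1, which was not called, has the identical core. They are read 5′ to 3′ on the strand of the gene with the core in capitals:
GCLM (chr1:93909446-93909474, minus strand): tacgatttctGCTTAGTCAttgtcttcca
TXNRD1, first start (chr12:104215670-104215698, plus strand): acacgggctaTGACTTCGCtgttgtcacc
TXNRD1, second start (chr12:104286920-104286948, plus strand): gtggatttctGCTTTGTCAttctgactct
KEAP1 (chr19:10502784-10502812, minus strand): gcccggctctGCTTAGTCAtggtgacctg
GCLM and KEAP1 share the core GCTTAGTCA, which lies 34 to 26 bases before the start of GCLM and 31 to 23 bases before that of KEAP1. By GENCODE 29, the last base of the core of GCLM is the first base of the transcript GCLM-204, the first TXNRD1 core lies upstream of all exons, the second lies in exons of 6 of the 9 TXNRD1 transcripts that span it, and the KEAP1 core lies in an exon of KEAP1-202. The first start of TXNRD1 and the KEAP1 window each held 1 further core. SRXN1, which rose as well, had no core of these letters in its window, nor did GCLC, NQO1, NFE2L2 or GPX4. These matches describe letters only, and binding was not measured.

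On the TPM scale, which divides counts by transcript length before scaling to the library, the genes differed widely in level in the GFP libraries. NQO1, a quinone reductase, was highest at 962 ± 136 TPM (SD, n = 3), followed by TXNRD1, the cytosolic thioredoxin reductase, at 363 ± 30.5 TPM. GPX4 (115 ± 5.84 TPM) and NFE2L2 (115 ± 17.0 TPM) had nearly the same mean level and overlapped. SRXN1, which restores overoxidised peroxiredoxins, was at 82.7 ± 23.1 TPM and overlapped with NFE2L2 above it and with GCLM, at 81.3 ± 8.06 TPM, below it. GCLC at 40.8 ± 1.77 TPM overlapped with KEAP1 at 35.4 ± 6.35 TPM, and HMOX1, the heme oxygenase that degrades heme, was lowest at 23.7 ± 9.32 TPM with a range that reached into that of KEAP1. In the TYRO3 groups NQO1 remained highest, with group means of 1214 to 1307 TPM. The mean of SRXN1 was above those of GPX4 and NFE2L2 in all 3 of these groups, at 223, 241 and 261 TPM with WT, ΔGS and ΔADAM.

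**Figure D1:**
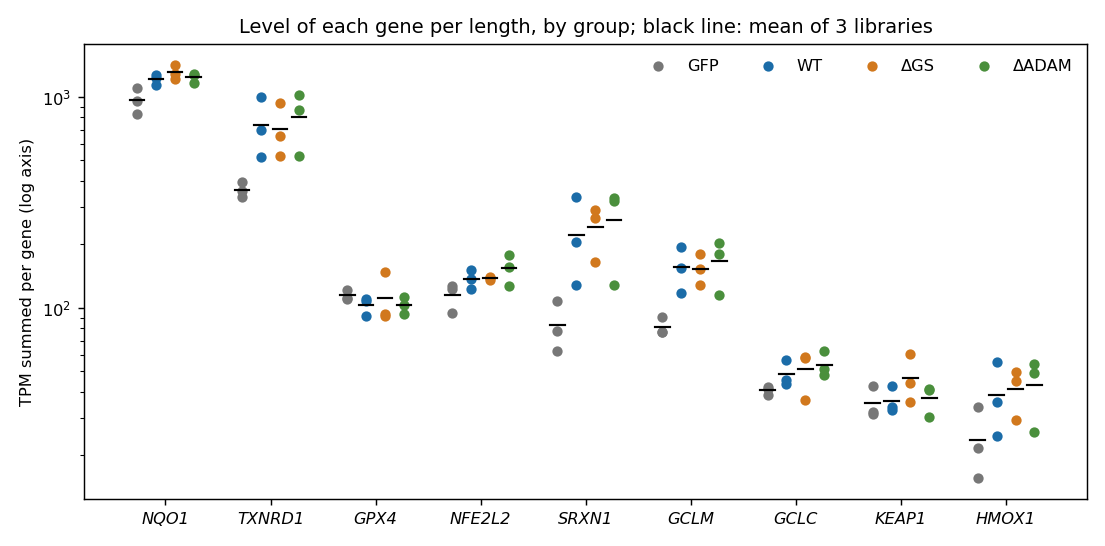
Level of each gene per length (TPM summed over its transcripts, log axis) in the 12 libraries; points are libraries coloured by group and the black line is the mean of 3. In the GFP group the means run from 962 TPM for NQO1 to 23.7 TPM for HMOX1. The points of SRXN1, TXNRD1, GCLM and NQO1 lie above the GFP points in the 3 TYRO3 groups. The share of all genes without such overlap was not counted.

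In the comparison of each TYRO3 group with GFP, the same 3 genes rose: GCLM, TXNRD1 and SRXN1. They encode the modifier subunit of glutamate cysteine ligase, thioredoxin reductase and sulfiredoxin. A gene was called when its fold change was over 1.5 and its adjusted p-value from the quasi-likelihood test of edgeR was at most 0.05, with a term for each experiment. Called as higher were 3 of the 9 genes with WT, where 1.66% of the 15098 genes tested were called as higher, 3 of 9 with ΔGS against a background of 2.81%, and 3 of 9 with ΔADAM against 3.15%. No member was called as lower, where the backgrounds were 0.689%, 1.88% and 2.05%. The 3 comparisons share the same GFP libraries, so that a low or high GFP library enters all of them. All 9 genes passed the filter on low counts. RNA was taken from whole cultures, so a higher level in all cells and a higher level in a part of the cells cannot be told apart. The labels number the experiments and do not say whether they came from separate cultures, and the p-values measure the spread between these libraries, which may be technical.

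**Figure D2:**
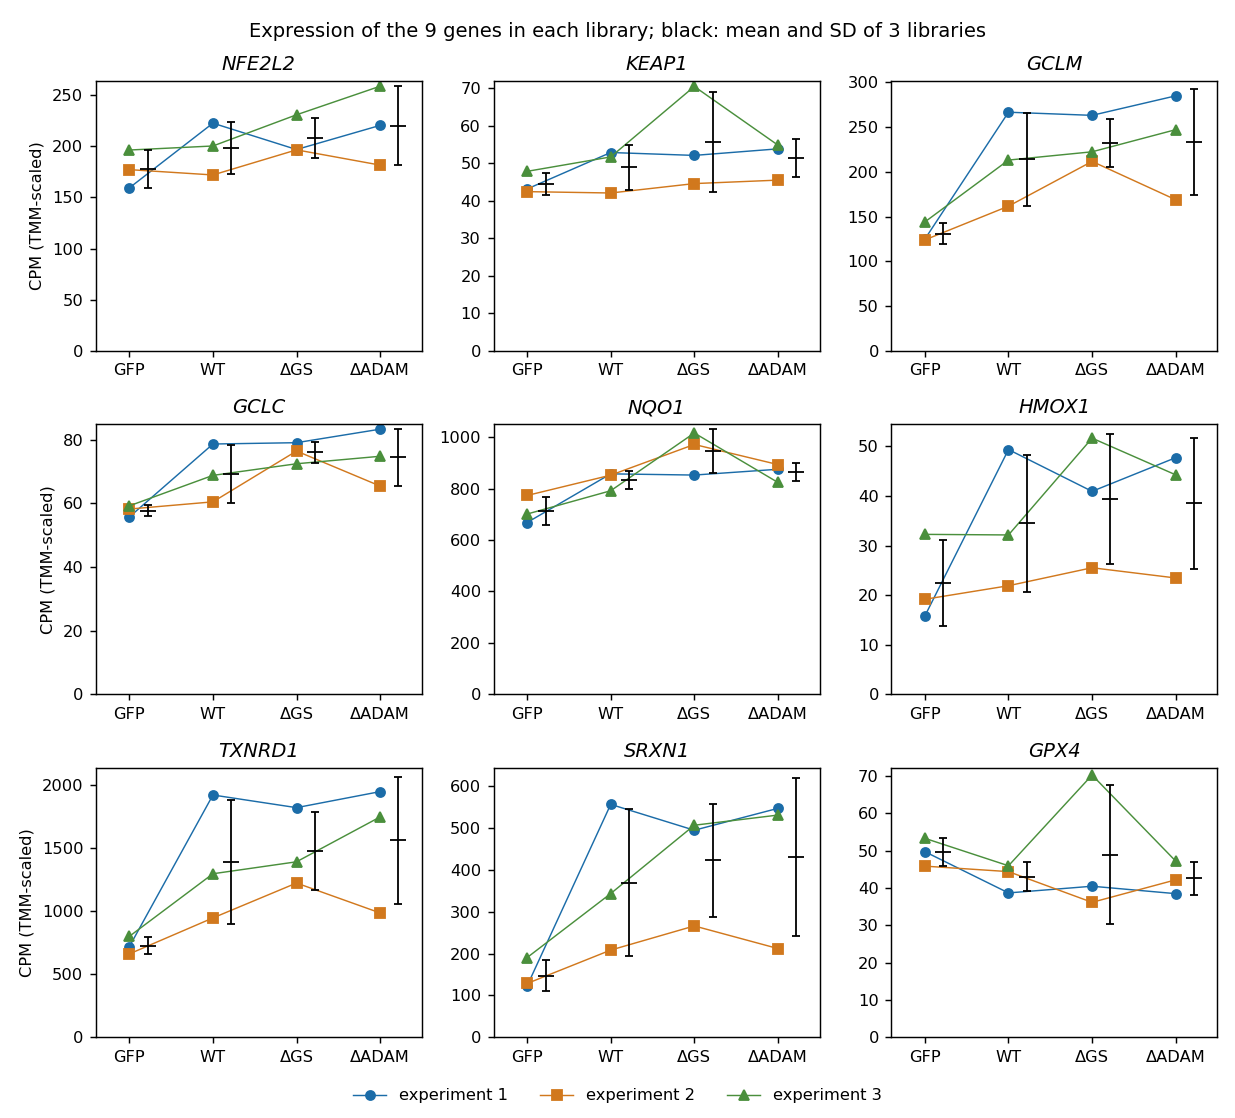
TMM-scaled CPM of the 9 genes in each of the 12 libraries, by group (x axis), with the libraries of an experiment joined by a line and the mean and SD of 3 libraries in black. GCLM, TXNRD1 and SRXN1, and also GCLC and NQO1, are higher in every TYRO3 library than in every GFP library. How many of all genes tested were likewise without overlap was not counted. For GCLM, TXNRD1 and SRXN1 the step is widest in experiment 1, whereas GPX4 overlaps between the groups.

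GCLM, on chromosome 1 (93885205 to 93909456, minus strand, GRCh38), was at 125, 124 and 144 CPM in the GFP libraries of experiments 1, 2 and 3. With WT it was at 267, 162 and 213 CPM, with ΔGS at 263, 212 and 222 CPM, and with ΔADAM at 285, 169 and 247 CPM. No TYRO3 library overlapped with the GFP libraries, and experiment 2 was the lowest in each group. How many of all genes tested were likewise without overlap was not counted, here or for the genes below. The log2 fold change was 0.66 (SE 0.13, adjusted p = 0.0251) with WT, 0.80 (SE 0.13, adjusted p = 0.00749) with ΔGS and 0.79 (SE 0.13, adjusted p = 0.00759) with ΔADAM. Within experiments 1, 2 and 3, WT exceeded GFP by 1.09, 0.38 and 0.57 on the log2 scale, ΔGS by 1.08, 0.77 and 0.63, and ΔADAM by 1.19, 0.45 and 0.78. The difference had the same direction in all 9 of these pairs and was largest in experiment 1 for each construct.

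TXNRD1, on chromosome 12 (104215779 to 104350305, plus strand), reduces thioredoxin with NADPH and is a selenoprotein. It was at 719, 661 and 800 CPM in GFP, at 1921, 946 and 1297 CPM in WT, at 1820, 1223 and 1391 CPM in ΔGS and at 1947, 986 and 1747 CPM in ΔADAM. The lowest TYRO3 library, WT of experiment 2, was still above the highest GFP library. The log2 fold change was 0.86 (SE 0.16, adjusted p = 0.0193) with WT, 0.99 (SE 0.16, adjusted p = 0.00724) with ΔGS and 1.04 (SE 0.16, adjusted p = 0.00593) with ΔADAM. Per experiment, WT was above GFP by 1.42, 0.52 and 0.70, ΔGS by 1.34, 0.89 and 0.80 and ΔADAM by 1.44, 0.58 and 1.13 on the log2 scale.

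SRXN1, on chromosome 20 (646615 to 653370, minus strand), had the largest fold changes of the 9 genes in all 3 comparisons. It was at 123, 129 and 190 CPM in GFP, at 556, 208 and 343 CPM in WT, at 494, 266 and 506 CPM in ΔGS and at 546, 212 and 530 CPM in ΔADAM. The groups did not overlap with GFP, although the lowest WT library at 208 CPM was close to the highest GFP library at 190 CPM. The log2 fold change was 1.19 (SE 0.24, adjusted p = 0.0257) with WT, 1.41 (SE 0.24, adjusted p = 0.00844) with ΔGS and 1.39 (SE 0.24, adjusted p = 0.00851) with ΔADAM, which are folds of 2.28, 2.66 and 2.62. Experiment 1 gave differences of 2.18, 2.01 and 2.15 for WT, ΔGS and ΔADAM, experiment 2 gave 0.70, 1.05 and 0.72, and experiment 3 gave 0.85, 1.41 and 1.48 on the log2 scale.

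The calls of these 3 genes depended on the term for each experiment. When only experiment 1 was set against experiments 2 and 3, as in the batch correction of the study, the adjusted p-values of GCLM, TXNRD1 and SRXN1 were 0.119, 0.119 and 0.182 with WT and 0.0576, 0.060 and 0.0859 with ΔGS, and no call remained in these 2 comparisons. With ΔADAM they were 0.0483 and 0.0469 for GCLM and TXNRD1, which kept their calls, and 0.0743 for SRXN1. With WT, 1 library at a time decided the calls. GCLM and SRXN1 lost them without GFP of experiment 1 (adjusted p = 0.0717 and 0.0524), WT of experiment 1 (0.141 and 0.121), WT of experiment 2 (0.0710 and 0.0878) or GFP of experiment 3 (0.0555 and 0.0660). TXNRD1 lost its call with WT without the first 3 of these (0.0551, 0.107 and 0.0625). With ΔGS all 3 calls were kept whichever of the 12 libraries was left out, and with ΔADAM GCLM (0.0561) and SRXN1 (0.0620) lost theirs without ΔADAM of experiment 3. In experiments 2 and 3 alone, 0, 3 and 2 of the 9 genes were called with WT, ΔGS and ΔADAM.

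GCLC, the catalytic subunit of the ligase whose modifier subunit is GCLM, lies on chromosome 6 (53497341 to 53616970, minus strand). It was at 55.8, 58.2 and 59.3 CPM in GFP, at 78.7, 60.5 and 68.8 CPM in WT, at 79.1, 76.5 and 72.5 CPM in ΔGS and at 83.4, 65.5 and 74.9 CPM in ΔADAM. Every TYRO3 library was above every GFP library, but by less than for GCLM. The log2 fold change was 0.24 (adjusted p = 0.169) with WT, 0.38 (adjusted p = 0.0318) with ΔGS and 0.35 (adjusted p = 0.0413) with ΔADAM, with an SE of 0.09 each, so that the fold stayed under 1.5 and GCLC was not called. By the adjusted p-value alone, 2.15%, 4.52% and 4.86% of all genes tested were higher with WT, ΔGS and ΔADAM, and GCLC was among them with both variants. Without the term for each experiment, the adjusted p-values of GCLC were 0.276, 0.0826 and 0.0875.

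NQO1, on chromosome 16 (69706996 to 69726951, minus strand), was at 668, 774 and 701 CPM in GFP, at 858, 853 and 792 CPM in WT, at 853, 972 and 1017 CPM in ΔGS and at 876, 894 and 824 CPM in ΔADAM. Its groups did not overlap with GFP either. The log2 fold change was 0.23 (SE 0.08, adjusted p = 0.140) with WT, 0.41 (SE 0.08, adjusted p = 0.0167) with ΔGS and 0.28 (SE 0.08, adjusted p = 0.0541) with ΔADAM, and the upper limits of the 95% intervals were 0.40, 0.59 and 0.46. NQO1 was therefore not called, and its adjusted p-value with ΔGS was 0.0652 without the term for each experiment.

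HMOX1, on chromosome 22 (35380361 to 35394214, plus strand), was at 15.8, 19.1 and 32.3 CPM in GFP, at 49.4, 21.9 and 32.1 CPM in WT, at 40.9, 25.5 and 51.7 CPM in ΔGS and at 47.7, 23.4 and 44.3 CPM in ΔADAM. Each TYRO3 group overlapped with GFP because GFP of experiment 3 was above the TYRO3 libraries of experiment 2. The value in GFP of experiment 1 rests on 60 estimated counts. The log2 fold change was 0.48 (SE 0.23, adjusted p = 0.255) with WT, 0.67 (SE 0.23, adjusted p = 0.0859) with ΔGS and 0.63 (SE 0.23, adjusted p = 0.0974) with ΔADAM. With WT the difference was 1.64 in experiment 1, 0.19 in experiment 2 and -0.01 in experiment 3 on the log2 scale. HMOX1 was called with ΔGS and ΔADAM by DESeq2 (adjusted p = 0.0174 and 0.0221) and without the filter on low counts (0.0329 and 0.0450), and with ΔGS also when WT of experiment 1 was left out (0.0473).

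The regulators NFE2L2 and KEAP1 were called in no comparison. NFE2L2, on chromosome 2 (177227595 to 177392697, minus strand), was at 159, 177 and 196 CPM in GFP, at 223, 172 and 200 CPM in WT, at 197, 197 and 231 CPM in ΔGS and at 221, 182 and 259 CPM in ΔADAM. ΔGS was the only TYRO3 group in which NFE2L2 did not overlap with GFP, by a margin of less than 1 CPM. Its log2 fold changes were 0.15 (95% interval -0.08 to 0.39), 0.22 (-0.02 to 0.45) and 0.29 (0.06 to 0.53) with WT, ΔGS and ΔADAM, with adjusted p-values of 0.454, 0.218 and 0.103. KEAP1, on chromosome 19 (10486120 to 10503741, minus strand), was at 43.1, 42.4 and 47.8 CPM in GFP, at 52.8, 42.1 and 51.7 CPM in WT, at 52.1, 44.6 and 70.4 CPM in ΔGS and at 53.8, 45.5 and 54.8 CPM in ΔADAM. Its highest value was in ΔGS of experiment 3, and all 3 TYRO3 groups overlapped with GFP. The log2 fold changes of KEAP1 were 0.12 (95% interval -0.11 to 0.35), 0.30 (0.06 to 0.53) and 0.19 (-0.04 to 0.43), with adjusted p-values of 0.559, 0.102 and 0.261.

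GPX4, on chromosome 19 (1103926 to 1106791, plus strand), was the member whose fitted change was below 0 in all 3 comparisons with GFP. It was at 49.7, 45.8 and 53.3 CPM in GFP, at 38.7, 44.4 and 45.9 CPM in WT, at 40.5, 36.1 and 70.2 CPM in ΔGS and at 38.5, 42.2 and 47.2 CPM in ΔADAM. The groups overlapped, and ΔGS of experiment 3 held the highest value of all 12 libraries. The log2 fold changes were -0.19 (95% interval -0.53 to 0.15), -0.04 (-0.38 to 0.29) and -0.21 (-0.54 to 0.13), with adjusted p-values of 0.514, 0.894 and 0.413 (unadjusted 0.238, 0.780 and 0.200). In experiments 2 and 3 alone the value with ΔGS was 0.07.

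**Figure D3:**
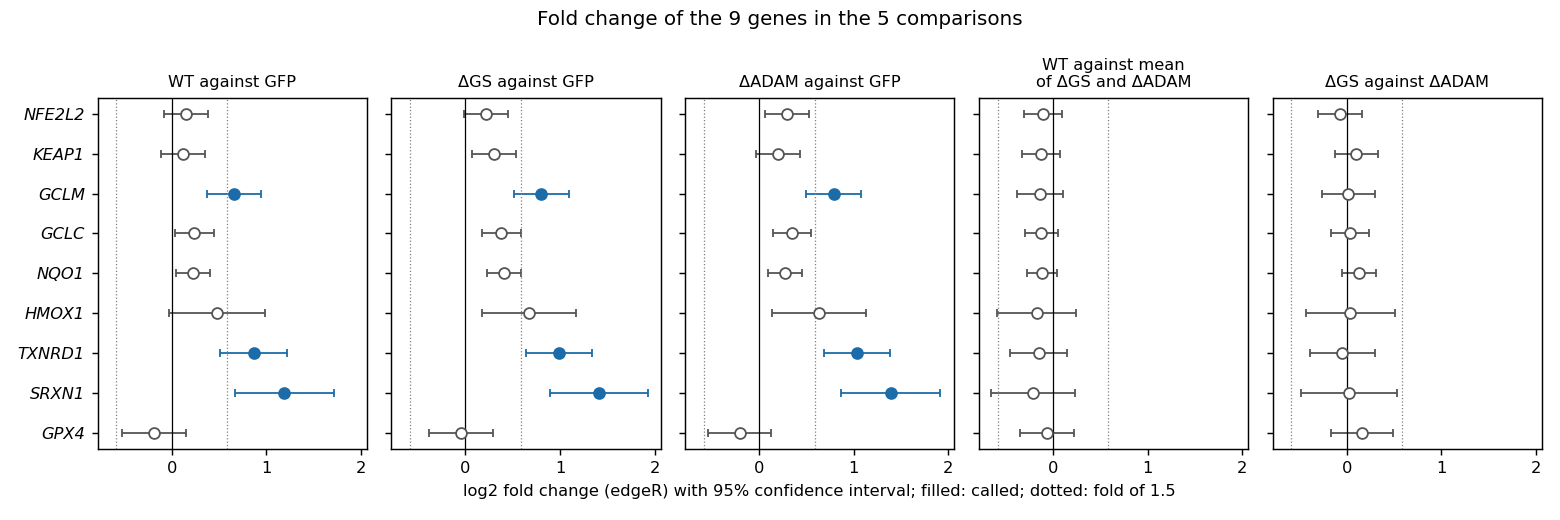
Log2 fold change (x axis) of the 9 genes in the 5 comparisons, with 95% confidence intervals from the edgeR fit; filled points were called and dotted lines mark a fold of 1.5. GCLM, TXNRD1 and SRXN1 are filled in the 3 comparisons with GFP (0.66 to 1.41), and 0 points are filled in the comparisons among the TYRO3 constructs.

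Whether cleavage-resistant TYRO3 differed from wild-type TYRO3 was tested directly. Called were 0 of the 9 genes between WT and the mean of ΔGS and ΔADAM, and 0 between ΔGS and ΔADAM, where 0% of the 15098 genes were called in either comparison. The smallest unadjusted p-values among the 9 genes were those of NQO1, 0.126 and 0.135. Of all genes 237 and 216 had an unadjusted p under 0.05, and DESeq2 called 5 and 1 of all genes and 0 of the 9. The intervals bound the difference for each gene. For WT against the mean of the variants the log2 difference of GCLM was -0.13 (95% interval -0.38 to 0.11), that of TXNRD1 was -0.15 (-0.45 to 0.15) and that of SRXN1 was -0.21 (-0.65 to 0.23). For ΔGS against ΔADAM these were 0.02 (-0.26 to 0.30), -0.04 (-0.39 to 0.30) and 0.02 (-0.48 to 0.53). A fold of 1.5 between constructs, 0.58 on the log2 scale, lies outside the intervals of GCLM and TXNRD1 in both comparisons and inside that of SRXN1 for WT against the variants. For WT against the variants it also lies inside the interval of HMOX1 (-0.592 to 0.246). All 9 fitted values of WT against the mean of the variants were below 0, between -0.21 and -0.07, beside a median over all genes tested of -0.002. The share of all genes below 0 was not counted. The 9 values come from the same libraries and are not 9 separate observations. In that comparison the sign of HMOX1 changed without WT of experiment 3 (0.031), and that of GPX4 without WT of experiment 3 (0.032) or ΔGS of experiment 3 (0.059).

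Around the 9 genes, 8 lists of pathway genes were described, which overlap in part and hold the members. The lists were chosen with earlier results of these data known. Of their 131 genes, 122 were tested, and 5 were called as higher and 2 as lower with WT, 9 and 6 with ΔGS, and 10 and 6 with ΔADAM. Of all genes tested, 1.66%, 2.81% and 3.15% were called as higher and 0.689%, 1.88% and 2.05% as lower in these comparisons. Their median log2 fold changes were -0.03, 0.05 and -0.04, beside medians over all genes tested of -0.003, 0.007 and -0.002.

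Among 32 NRF2 target genes, 5 rose with WT, 6 with ΔGS and 7 with ΔADAM, and 0 fell, where the shares of all genes called as higher were 1.66%, 2.81% and 3.15%. The medians of the list were 0.15, 0.25 and 0.16 on the log2 scale. In each comparison the called genes included GCLM, TXNRD1 and SRXN1 together with SLC7A11, the cystine transporter that supplies cysteine for glutathione, and ABCC3, an efflux pump for conjugated compounds. SLC7A11 was at 302.2, 259.4 and 281.6 CPM in GFP, at 1094, 362 and 613 CPM in WT, at 941, 592 and 500 CPM in ΔGS and at 1057, 431 and 846 CPM in ΔADAM. Its groups did not overlap with GFP, and its log2 fold changes were 1.14 (SE 0.24, adjusted p = 0.0309), 1.21 (SE 0.24, adjusted p = 0.0162) and 1.36 (SE 0.24, adjusted p = 0.00919). ABCC3 was expressed at a far lower level, with 4.997, 5.53 and 2.53 CPM in GFP, and its log2 fold changes were 0.96, 1.17 and 1.14 (adjusted p = 0.0240, 0.00638 and 0.00676). TRIM16L rose with ΔGS (0.66, adjusted p = 0.00162). AKR1C1 and AKR1C2, named after their values were seen because they complete the count with ΔADAM (1.47 and 1.83, adjusted p = 0.0414 and 0.0365), are near-identical copies between which reads may be split, at no more than 5.64 and 1.36 CPM in any library. Without the term for each experiment, 0, 0 and 3 of the 32 genes were called with WT, ΔGS and ΔADAM, and with 1 library left out the count with WT was 0 (without GFP of experiment 1, WT of experiment 1 or WT of experiment 2) and that with ΔADAM was 2 (without ΔADAM of experiment 3).

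Of 13 NRF2 regulators, 0 were called in any comparison, with medians of 0.12, 0.16 and 0.19. By the adjusted p-value alone 0, 3 and 2 of them passed, all under a fold of 1.5, and DESeq2 called 0. An unadjusted p under 0.05 was found for 5, 7 and 7 of them. Of all 15098 genes tested, 541, 1352 and 1537 passed by the adjusted p-value alone. An unadjusted p under 0.05 was found for 3241, 4022 and 4136 of all genes. The regulators that passed by the adjusted p-value, named after their values were seen, were SQSTM1, which sequesters KEAP1 (0.51 with ΔGS and 0.41 with ΔADAM), DPP3, which binds KEAP1 (-0.34 and -0.42), and, with ΔGS, the kinase GSK3B (-0.36). Of 32 tested genes of glutathione synthesis and use, GCLM rose in all 3 comparisons and was joined with ΔGS and ΔADAM by CHAC1, which degrades glutathione and is known as a target of the amino acid stress response. CHAC1 was at 3.68, 5.42 and 8.34 CPM in GFP, at 44.6, 8.40 and 33.9 CPM in WT, at 24.2, 24.9 and 98.6 CPM in ΔGS and at 28.1, 18.9 and 107 CPM in ΔADAM. Its log2 fold change was 2.06 (SE 0.55, adjusted p = 0.0657) with WT, 2.67 (SE 0.53, adjusted p = 0.0168) with ΔGS and 2.64 (SE 0.54, adjusted p = 0.0161) with ΔADAM. GGT1, which cleaves extracellular glutathione, fell with ΔADAM (-0.73, adjusted p = 0.0311). The medians of this list were -0.07, 0.07 and -0.09, beside -0.003, 0.007 and -0.002 over all genes tested. With WT, ΔGS and ΔADAM, 1.66%, 2.81% and 3.15% of all genes were called as higher and 0.689%, 1.88% and 2.05% as lower. Without the term for each experiment, 0, 0 and 1 genes of the list were called, and without ΔADAM of experiment 3 the count with ΔADAM was 0. With WT it was 0 without GFP of experiment 1, WT of experiment 1, WT of experiment 2 or GFP of experiment 3, and with ΔGS it was 1 without GFP of experiment 1, ΔGS of experiment 2 or GFP of experiment 3.

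Of 20 genes of the thioredoxin and peroxiredoxin system, TXNRD1 and SRXN1 rose in all 3 comparisons, and TXNIP, an inhibitor of thioredoxin, rose with ΔGS (0.82, adjusted p = 0.0409) and ΔADAM (1.01, adjusted p = 0.0194). SESN3, a sestrin, fell in all 3, by 1.27, 1.44 and 1.33 on the log2 scale (adjusted p = 0.0116, 0.00461 and 0.00593). It was at 27.4, 45.4 and 38.7 CPM in GFP and at 6.76 to 24.8 CPM in the 9 TYRO3 libraries, without overlap. The shares of all genes called as higher were 1.66%, 2.81% and 3.15% with WT, ΔGS and ΔADAM, and those called as lower 0.689%, 1.88% and 2.05%. SESN3 kept its calls with ΔGS and ΔADAM without the term for each experiment (adjusted p = 0.0342 and 0.0334) and lost the one with WT (0.060). The list then held 0, 1 and 2 called genes in place of 3, 4 and 4, and 2 with ΔADAM without ΔADAM of experiment 3. With WT it held 0 without WT of experiment 1 or WT of experiment 2, 1 without GFP of experiment 1, and 0 in experiments 2 and 3 alone.

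Of 16 tested ferroptosis defense genes, which include GPX4, SLC7A11 rose in all 3 comparisons, and SLC3A2, its heavy chain, rose with ΔGS (0.69, adjusted p = 0.0181) and ΔADAM (0.62, adjusted p = 0.0240). DHCR7, which turns 7-dehydrocholesterol into cholesterol, fell in all 3 (-1.20, -1.23 and -1.22, adjusted p = 0.0260, 0.0156 and 0.0141), and SCD, which makes monounsaturated fatty acids, fell with ΔGS (-1.13, adjusted p = 0.0248) and ΔADAM (-1.06, adjusted p = 0.0291). DHCR7 is held in this list although it is known to promote ferroptosis, since 7-dehydrocholesterol protects lipids from peroxidation. Without the term for each experiment 0, 0 and 2 of them were called, without ΔGS of experiment 2 the count with ΔGS was 0 and without ΔADAM of experiment 3 that with ΔADAM was 0. With WT the count was 0 without WT of experiment 1, without WT of experiment 2 and in experiments 2 and 3 alone. Without GFP of experiment 1 the counts were 1, 1 and 2. Of 13 tested ferroptosis promoters, 0 were called with WT by edgeR and 2 by DESeq2, and 8 had an unadjusted p under 0.05. Of all 15098 genes tested, 3241 had an unadjusted p under 0.05 with WT, and DESeq2 called 610. With ΔGS, ACSL4 (-0.59, adjusted p = 0.0180), which activates polyunsaturated fatty acids, the transferrin receptor TFRC (-0.61, adjusted p = 0.0293) and the lysophospholipid acyltransferase LPCAT3 (-0.82, adjusted p = 0.0259) fell. With ΔADAM, TFRC (-0.65, adjusted p = 0.0235) and LPCAT3 (-0.75, adjusted p = 0.0331) fell. The medians of the promoters were -0.25, -0.17 and -0.25, beside -0.003, 0.007 and -0.002 over all genes tested. With WT, ΔGS and ΔADAM, 1.66%, 2.81% and 3.15% of all genes were called as higher and 0.689%, 1.88% and 2.05% as lower. In experiments 2 and 3 alone, and likewise without the term for each experiment, 0 of the promoters were called, and with ΔGS this was also so without GFP of experiment 1, GFP of experiment 3 or ΔGS of experiment 3. With ΔADAM it was so without GFP of experiment 1, ΔADAM of experiment 1, GFP of experiment 3 or ΔADAM of experiment 3. Of 6 tested genes of selenoprotein synthesis and 3 of superoxide and hydrogen peroxide removal, 0 were called in any comparison by edgeR or DESeq2, with 0 of the former and at most 2 of the latter at an unadjusted p under 0.05.

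**Figure D4:**
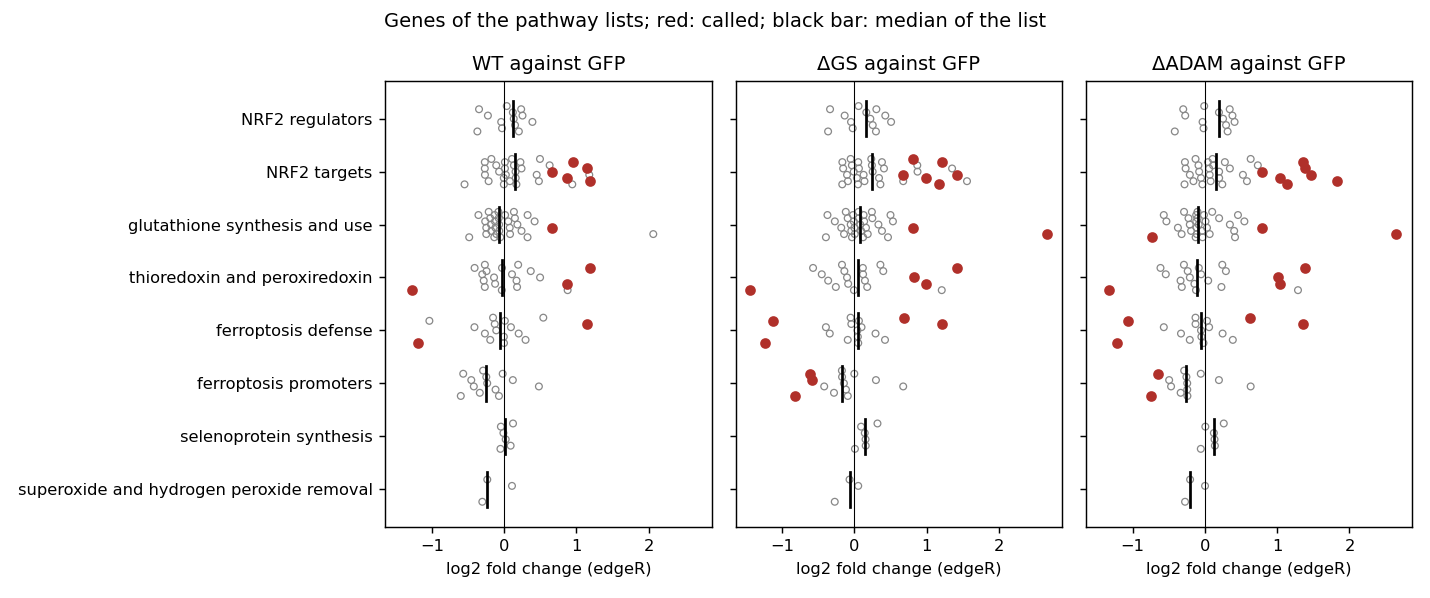
Log2 fold change against GFP (x axis) of each tested gene of the 8 pathway lists, one panel per TYRO3 construct; red points were called and the black bar is the median of the list. The called NRF2 targets all lie to the right of 0, those among the ferroptosis promoters to the left, and the medians lie between -0.25 and 0.25.

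The transcripts to which kallisto assigned the counts of a gene were also compared. SRXN1 has 1 transcript in the files, and HMOX1-201, GPX4-210 and NFE2L2-201 took mean shares of 98.5%, 91.6% and 87.7% of their genes. TXNRD1 has 24 transcripts, of which TXNRD1-204, TXNRD1-211 and TXNRD1-224 had 0 counts in every library. The mean shares of its counts were 41.5% in TXNRD1-212, 19.7% in TXNRD1-205 and 17.7% in TXNRD1-214. The 2 libraries that stood apart were GFP of experiment 1 and ΔGS of experiment 3. In the former TXNRD1-212 took 61.5% and TXNRD1-205 2.38%, and GPX4-210 took 72.3%. In the latter TXNRD1-212 took 52.9%, TXNRD1-206 was at 0, GCLC-213 took 62.6% and GCLM-201 79.6%. In each case the other libraries of the same group lay closer to the mean. TPM and CPM did not always rank the libraries alike, and the part of the shares in this was not tested. GPX4 in GFP of experiment 1 was at 112 TPM, beside 111 and 121 TPM in GFP of experiments 2 and 3. GCLC in ΔGS of experiment 3 was at 36.5 TPM, below all 3 GFP libraries (38.8 to 42.2 TPM), while its CPM of 72.5 was above all of them. The calls above were made on counts summed per gene, and restricting the sums to protein-coding transcripts called 3 of the 9 genes in each comparison with GFP, as before.

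**Figure D5:**
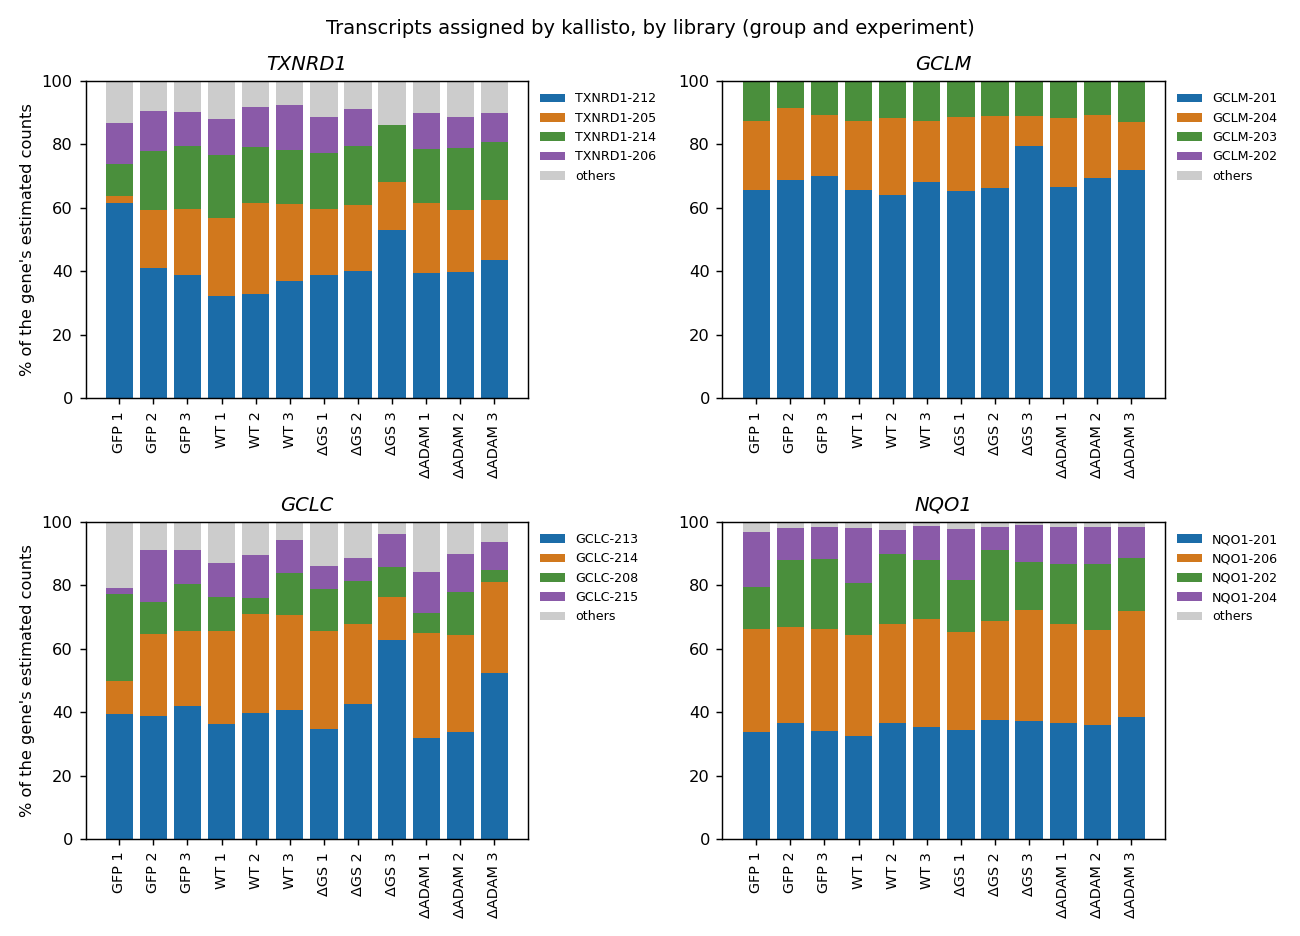
Share of the estimated counts of TXNRD1, GCLM, GCLC and NQO1 assigned to each of their 4 largest transcripts and to all others (y axis, percent) in the 12 libraries. TXNRD1-212 takes 61.5% in GFP of experiment 1 and 52.9% in ΔGS of experiment 3, while the shares of NQO1 differ less between libraries.

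After the mean of each experiment was subtracted from log2 CPM, the members varied together to different degrees over the 12 libraries. These values include the difference between GFP and TYRO3 libraries and describe these libraries only. Pearson's r was 0.99 for GCLM and TXNRD1 and 0.99 for TXNRD1 and SRXN1, 0.98 for GCLM and GCLC, and 0.93 for KEAP1 and NQO1. GPX4 had values between -0.55 (GCLM) and 0.22 (KEAP1) with the other 8 genes. Among all genes tested, the patterns most like that of TXNRD1 were those of UBE2J1 and CYP4V2 (0.99 each). For SRXN1 they were NDRG1 and C3orf80 (0.99 each), for GCLM they were TXNRD1 and IGFN1 (0.99 each) and for GCLC they were GCLM and TMEM155 (0.98 each). NQO1 was most like TOR3A and HMGN4 (0.98 each), HMOX1 most like NXF1 and CDC42EP2 (0.99 each), NFE2L2 most like FUT1 (0.99) and CSTF3 (0.98), KEAP1 most like PUS1 and STMP1 (0.98 each), and GPX4 most like AP2S1 and CHCHD2 (0.98 each).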

How the data were processed

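The authors trimmed the reads (75 bases, paired) with PRINSEQ and Trimmomatic 0.33, checked them with FastQC 0.11.9 and ran kallisto 0.46.0 on the transcripts of Ensembl 96 (GRCh38). The deposited files hold estimated counts and TPM for 188753 transcripts per library, without the batch correction that the study applied. Of these, 169797 matched GENCODE 29 by identifier without version and were summed to 35579 genes, with 97.4% to 97.5% of the counts. Sums were rounded, scaled by TMM, filtered with filterByExpr (at least 10 counts in enough libraries, 15 in total) and fitted in edgeR 4.0.16 (R 4.3.3) by quasi-likelihood, with the 4 groups and 3 experiments as terms. Benjamini-Hochberg adjustment ran over the 15098 genes tested in each of 5 comparisons.

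The labels number the experiments. Deviations from group means correlated with a median r of 0.24 between libraries of the same experiment (18 pairs, -0.02 to 0.44) and of -0.11 between those of different ones (36 pairs). The deviations of a group sum to 0, so a positive value for the same experiment brings a negative one for the others. The 2 medians are therefore not separate observations. Alternatives were no replicate block (experiment 1 against 2 and 3), size factors of DESeq2's type, no filter, DESeq2 1.42.0, experiments 2 and 3 alone, protein-coding transcripts only, no fold threshold, and each of the 12 libraries left out. The members and gene lists were chosen with earlier results of these data known. Named genes were TYRO3, the 9 members, up to 3 genes each way per list with the smallest adjusted p-value among those called, and the 2 genes most correlated with each member. SOD2 has 2 gene identifiers, of which the one with the most counts was used. The procedure was tested on simulated data. Figures were made with matplotlib 3.10.9 in Python 3.11.15.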

Additional observations from a re-analysis of the deposited data

How the results depend on the processing

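The number of the 9 genes called was 3 in each comparison with GFP. With WT it was 3 with DESeq2, with size factors of its type, without the filter, without the fold threshold and with protein-coding transcripts only, and 0 in experiments 2 and 3 alone. With ΔGS it was 4 with DESeq2 or without the filter and 5 without the fold threshold. With ΔADAM it was 4 under these 3 settings and 2 in experiments 2 and 3 alone. With no replicate block, the fit that pairs libraries only by experiment 1 against 2 and 3, it was 0, 0 and 2 with WT, ΔGS and ΔADAM. Leaving out 1 library gave 0 to 3 with WT, 3 to 4 with ΔGS and 1 to 3 with ΔADAM. Among the constructs it was 0 throughout. Over all genes the count was 355 with WT (610 with DESeq2, 47 in experiments 2 and 3 alone, 577 without the filter, 6 without the block, 541 without the fold threshold, 240 protein-coding, 79 to 606 with 1 library left out). With ΔGS it was 708 (189 in experiments 2 and 3 alone, 69 without the block, 1352 without the fold threshold, 269 to 777 with 1 library left out). With ΔADAM it was 784 (218, 168 and 1537 in the same order, 198 to 870 with 1 library left out). WT against the mean of both variants gave 0 and, with DESeq2, 5 or, without the filter, 2, and 0 to 0 with 1 library left out. ΔGS against ΔADAM gave 0 and, with DESeq2, 1, and 0 to 1 with 1 library left out. The sign of a log2 fold change that was not called turned for SRXN1 between ΔGS and ΔADAM without the block (-0.012) and for GPX4 between ΔGS and GFP in experiments 2 and 3 alone (0.068). Leaving out 1 library turned it for GPX4 with ΔGS against GFP (-0.30 to 0.13), for HMOX1 (-0.45 to 0.031) and GPX4 (-0.17 to 0.059) with WT against both variants, and, between ΔGS and ΔADAM, for KEAP1 (-0.042 to 0.18), GCLM (-0.098 to 0.087), GCLC (-0.032 to 0.074), HMOX1 (-0.086 to 0.13), TXNRD1 (-0.19 to 0.065), SRXN1 (-0.15 to 0.13) and GPX4 (-0.087 to 0.34). Of the 855 values of single genes under the alternatives, 803 kept their direction and side of the threshold. A call was lost in 24 values and gained in 8, and the sign turned in 20. Most of the 855 values belong to results that were not called and had no call to lose. The setting without the fold threshold repeats the main fit. The cause of the differences between settings was not tested. The fits on experiments 2 and 3 alone and those with 1 library left out also hold fewer libraries. Without GFP of experiment 1, which held 4008293 counts, 148, 269 and 288 of all genes were called with WT, ΔGS and ΔADAM.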
